A study of Mus musculus with 10 samples.

Results

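The immediate early and heat shock genes examined here are Fos, Fosb, Jun, Junb, Egr1, Atf3, Ier2, Dusp1, Hspa1a and Hspa1b, genes that tissue dissociation and cell sorting can induce. They were chosen by symbol, all 10 were rows of the count table, which lists 13932 genes, and all 10 passed the filter on low counts that 12477 genes passed. RNA came from live, CD45-negative, EpCAM-positive epithelial cells of the mouse ileum, 400000 sorted cells from each of 10 mice, 1 library per mouse. The 5 dIEC mice (H2-Ab1 fl/fl; Villin:Cre+) were 3 males, numbered 1, 3 and 5, and 2 females, 7 and 9. The 5 WT mice (H2-Ab1 fl/fl; Villin:Cre-) were 3 males, 2, 4 and 6, and 2 females, 8 and 10. Both groups thus carry the floxed H2-Ab1 allele, which encodes an MHC class II beta chain, and only dIEC mice carry Cre recombinase, driven by the villin promoter that is active in intestinal epithelium. Genotypes follow the sample labels, with which the series text conflicts, since it gives Villin:Cre- for dIEC as well as for WT mice. The effect of losing the gene and that of Cre cannot be told apart. The sources used here do not state the age of the mice or the time between death and cell lysis.

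Immediate early genes are transcribed within minutes of a stimulus without new protein synthesis, through factors that are already present and are activated by MAP kinases. Fos and Jun family proteins pair to form AP-1, which drives a later wave of genes, while Atf3 and the phosphatase Dusp1 act back on the response. Heat shock genes are driven by HSF1, a factor released when unfolded proteins occupy the chaperones that hold it, and the stress-inducible Hsp70 genes are among its strongest targets. In intestinal epithelium, as in other tissues, these genes are known to respond to enzymatic dissociation and sorting, so a level in sorted cells need not be the level in the intact tissue.

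The promoters of 5 genes are shown, 3 that hold a cyclic AMP response element core and 2, those of the Hsp70 pair, that hold a pair of inverted heat shock units. RefSeq sequences (GRCm38.p6) matched 8 of the 10 genes, all but Egr1 and Ier2. Each line gives the 250 bases before the start site in RefSeq, read on the gene's strand. Capitals mark TGACG, the core of the cyclic AMP response element bound by CREB and ATF proteins, in Fos, Junb and Dusp1, and GAANNTTC, a pair of inverted heat shock units, in Hspa1a and Hspa1b.
Fos: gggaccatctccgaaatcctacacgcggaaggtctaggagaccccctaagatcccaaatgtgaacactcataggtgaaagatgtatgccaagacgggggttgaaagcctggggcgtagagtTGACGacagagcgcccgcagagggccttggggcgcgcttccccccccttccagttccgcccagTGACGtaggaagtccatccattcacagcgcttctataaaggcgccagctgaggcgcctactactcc
Junb: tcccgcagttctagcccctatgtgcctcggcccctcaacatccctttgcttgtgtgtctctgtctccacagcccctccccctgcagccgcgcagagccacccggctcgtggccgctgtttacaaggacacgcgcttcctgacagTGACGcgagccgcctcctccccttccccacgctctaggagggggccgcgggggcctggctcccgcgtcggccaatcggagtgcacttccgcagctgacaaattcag
Dusp1: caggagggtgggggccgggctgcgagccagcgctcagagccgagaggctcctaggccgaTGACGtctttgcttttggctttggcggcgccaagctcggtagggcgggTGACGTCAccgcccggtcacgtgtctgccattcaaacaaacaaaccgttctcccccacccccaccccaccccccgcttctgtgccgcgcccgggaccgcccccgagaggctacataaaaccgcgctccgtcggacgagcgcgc
Hspa1a: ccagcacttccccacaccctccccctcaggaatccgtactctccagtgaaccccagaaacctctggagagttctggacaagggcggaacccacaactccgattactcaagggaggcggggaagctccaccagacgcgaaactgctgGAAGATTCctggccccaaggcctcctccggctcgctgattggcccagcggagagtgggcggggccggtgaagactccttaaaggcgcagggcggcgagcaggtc
Hspa1b: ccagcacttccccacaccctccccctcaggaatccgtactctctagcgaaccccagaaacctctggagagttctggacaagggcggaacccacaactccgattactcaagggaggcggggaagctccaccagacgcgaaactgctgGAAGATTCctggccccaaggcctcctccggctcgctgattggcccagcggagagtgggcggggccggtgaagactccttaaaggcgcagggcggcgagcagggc
The windows lie at chr12:85473640-85473889 on the plus strand for Fos and, on the minus strand, at chr8:84978749-84978998 for Junb, chr17:26508473-26508722 for Dusp1, chr17:34972157-34972406 for Hspa1a and chr17:34959239-34959488 for Hspa1b. Both strands were searched for each motif. TGACG was found in Fos, Fosb, Junb, Atf3 and Dusp1, against 17.8% of 32851 promoter windows of the same length. The full palindrome TGACGTCA, which contains TGACG, was found in Dusp1 alone, against 1.55% of windows. GAANNTTC was found in Hspa1a, Hspa1b and Jun, against 6.69% of windows. The AP-1 site TGANTCA and the CArG box, bound by serum response factor, had no match in these 8 windows, against 6.75% and 1.47% of all windows. TATAAA was found in Fos (12.4% of windows) and CCAAT in Hspa1a, Hspa1b, Jun and Junb (33.8% of windows). A match is a run of letters in this window and does not show binding. Bases farther upstream were not searched, so a window without a match does not show that the gene lacks the site.

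The libraries held 9174101 to 13484363 counts. H2-Ab1 ran from 0.767 to 3.11 CPM (counts per 1000000, on library totals scaled by TMM, a factor that evens out composition between libraries) in dIEC mice and from 62.9 to 368 CPM in WT mice, so every library matched its label. All 7 epithelial marker genes were present, and their summed level ran from 10030.2 to 14369 CPM in dIEC mice and from 9623 to 12739 CPM in WT mice. Of 18 leukocyte symbols 4 were rows of the table, with a summed level of 12.4 to 20.4 CPM in dIEC mice and 9.02 to 18 CPM in WT mice, most of it Itgam. Ptprc, the gene of CD45, was at 0.0852 to 0.797 CPM. Of 10 stromal symbols 3 were rows, and of 6 endothelial symbols 2. The TMM factor was lowest in dIEC 7 (0.812) and highest in dIEC 9 (1.21). The same 2 females stood at the ends of the proliferation score, the mean log2 CPM of 26 cell cycle genes, with 2.97 in dIEC 7 and 5.62 in dIEC 9, against 3.31 to 5.18 in the other 8 libraries.

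No gene of the set passed the test between dIEC and WT mice, and none passed between the sexes. The AP-1 genes were abundant in every library of both genotypes. What varied was the Hsp70 pair, which differed almost 10-fold between libraries, while the other 8 genes stayed within 2.13-fold. In bulk RNA, fewer cells that express a gene and less RNA per cell cannot be told apart.

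**Figure D1:**
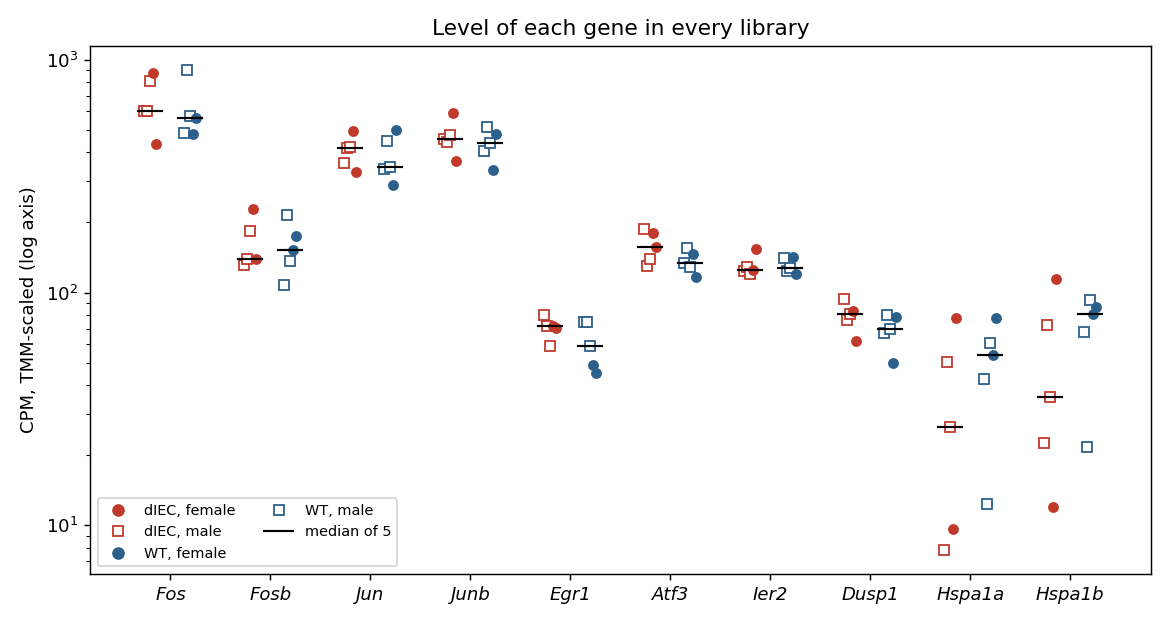
CPM (TMM-scaled, log axis) of the 10 genes in each of 10 libraries, dIEC in red left of WT in blue, females as filled circles and males as open squares; the black line is the median of 5 libraries. The dIEC and WT libraries overlap for each gene, and Hspa1a and Hspa1b alone spread over almost 10-fold.

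The Fos family was measured first. Fos, at chr12:85473890-85477273 (GRCm38), encodes the c-Fos subunit of AP-1. It had 601, 605, 814, 875 and 435 CPM in dIEC mice 1, 3, 5, 7 and 9, against 485, 905, 575, 478 and 563 CPM in WT mice 2, 4, 6, 8 and 10. The highest value was that of a WT male and the lowest that of a dIEC female, and the groups overlapped. Fos averaged 666 ± 178 CPM in dIEC and 601 ± 175 CPM in WT mice (SD, n = 5 each), and the fitted log2 fold change was 0.16 with SE 0.24 (edgeR quasi-likelihood adjusted p = 0.9999). Over all 12477 genes tested, 2 passed at an adjusted p of 0.05 in this comparison, 0.016%, and none of the 10 genes did. Before adjustment 355 genes had p under 0.05, 2.85%, and again none of the 10. The dIEC and WT libraries did not overlap for 39 genes, 0.313%, and overlapped for each of the 10. Without dIEC 7 the log2 fold change of Fos was -0.051. Fosb, a paralog of Fos that also pairs with Jun proteins, ran from 131 to 229 CPM in dIEC mice and from 108 to 216 CPM in WT mice (log2 fold change 0.06, SE 0.22). As for Fos, its highest values were in dIEC 7 and WT 4.

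The Jun family genes ranged 1.71-fold (Jun) and 1.76-fold (Junb) over the 10 libraries. Junb, at chr8:84974484-84978718, encodes JunB, which pairs with Fos proteins and restrains growth in many tissues. It had 459, 441, 474, 592 and 367 CPM in dIEC mice 1, 3, 5, 7 and 9, against 406, 513, 439.8, 335 and 478 CPM in WT mice 2, 4, 6, 8 and 10. The dIEC values enclosed all WT values but that of WT 8. The log2 fold change was 0.10 (SE 0.18). Jun, at chr4:95049034-95052222, a gene with a single exon that encodes c-Jun, ran from 329 to 497 CPM in dIEC mice and from 291 to 497 CPM in WT mice (log2 fold change 0.07, SE 0.19).

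Egr1 encodes a zinc finger factor induced through MAP kinases and serum response factor. It had 80.1, 71.6, 58.7, 71.8 and 70.2 CPM in dIEC mice 1, 3, 5, 7 and 9, against 75.1, 74.4, 59.0, 48.6 and 45.1 CPM in WT mice 2, 4, 6, 8 and 10. The 2 WT females had the lowest values of all 10 libraries, and the genotypes overlapped through the males. The means were 70.5 ± 7.67 CPM in dIEC and 60.4 ± 14.0 CPM in WT mice (SD, n = 5 each), with a log2 fold change of 0.25 (SE 0.15). Its unadjusted p of 0.129 in edgeR was the lowest of the 10 genes (adjusted p = 0.9999). The question whether the genotype difference depended on sex was tested as an interaction. For Egr1 it was 0.59 on the log2 scale (SE 0.26; unadjusted p = 0.0512, edgeR adjusted p = 1). The log2 fold change of Egr1 was 0.60 in females alone and 0.013 in males alone. None of the 10 genes passed for the interaction, where 1 of 12477 genes did, 0.00801%, with 262 at an unadjusted p under 0.05, 2.1%, and each sex-specific value in females rests on 2 mice per genotype.

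Atf3 encodes a stress-induced ATF family factor that mostly represses, and ran from 130.3 to 188 CPM in dIEC mice and from 116 to 155 CPM in WT mice (log2 fold change 0.23, SE 0.15). Dusp1 encodes a nuclear phosphatase that switches off p38 and JNK, and ran from 62.1 to 93.6 CPM in dIEC mice and from 49.7 to 79.9 CPM in WT mice (log2 fold change 0.20, SE 0.15). Without 1 library these values were lowest at 0.14 for Atf3 (without dIEC 1) and at 0.12 for Dusp1 (without WT 8), and Dusp1 was highest at 0.31 (without WT 10). Ier2 encodes a nuclear protein whose function is less well known. It had 123, 129, 119.9, 125 and 154 CPM in dIEC mice 1, 3, 5, 7 and 9, against 140.1, 123, 127, 142 and 120.4 CPM in WT mice 2, 4, 6, 8 and 10. On TMM-scaled values it was the steadiest of the set, with dIEC 9 somewhat above the rest. With library size as the only scaling its highest value was 1.84 times its lowest, more than for Fos, Fosb, Jun and Junb. The log2 fold change of Ier2 was -0.0063 (SE 0.12), a sign that turned under several alternatives. Over the 10 genes the median log2 fold change of dIEC over WT was 0.088 and 7 were positive, beside a median of 0.013 and 52.6% positive over all genes tested.

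The Hsp70 pair stood apart in its spread. Hspa1a (chr17:34969190-34972156) and Hspa1b (chr17:34956436-34959238) are neighbouring genes of 1 exon each on the minus strand, 9951 bases apart, that encode the stress-inducible cytosolic chaperone Hsp70. They lie in the MHC region of chromosome 17, with 687016 bases between H2-Ab1 and Hspa1b. Hspa1a had 7.85, 50.2, 26.4, 9.65 and 77.5 CPM in dIEC mice 1, 3, 5, 7 and 9, against 42.5, 12.3, 60.5, 54.1 and 77.8 CPM in WT mice 2, 4, 6, 8 and 10. Hspa1b had 22.5, 72.2, 35.7, 11.95 and 114 CPM in the same dIEC mice, against 67.9, 21.7, 93.2, 80.6 and 86.8 CPM in the same WT mice. Both genes were low in dIEC 1, dIEC 7 and WT 4 and high in dIEC 9, WT 6 and WT 10, and the genotypes overlapped across most of the range. The counts behind these values, 75 to 1264 for Hspa1a and 104 to 1864 for Hspa1b, make counting error small beside these differences.

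The means of Hspa1a were 34.3 ± 29.5 CPM in dIEC and 49.4 ± 24.4 CPM in WT mice (SD, n = 5 each), with a log2 fold change of -0.51 (SE 0.61; edgeR adjusted p = 0.9999). Those of Hspa1b were 51.3 ± 41.9 CPM in dIEC and 70.0 ± 28.6 CPM in WT mice (log2 fold change -0.45, SE 0.56). Both values depended on single libraries of either genotype. Without dIEC 9 the log2 fold changes were -1.03 for Hspa1a and -1.06 for Hspa1b, and without dIEC 7 they were -0.23 for Hspa1a and -0.18 for Hspa1b. For Hspa1a the value was also -0.89 without dIEC 3, -0.27 without dIEC 1 and -0.25 without WT 6, and for Hspa1b -0.76, -0.28 and -0.21 without the same libraries, with no call in any case.

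The coding sequences of the pair, 1923 and 1926 bases long, are 99.43% the same and differ at 8 aligned bases besides 3 gap bases. Of all 50-base windows of the Hspa1a transcript 58.8% also occur in Hspa1b, and 62.3% the other way round, so the authors' counting could move reads between the genes or drop them. The promoter windows shown above differ at 3 of 250 bases. The share of Hspa1a in the sum of both was 25.9% in dIEC 1 and between 36.2% and 47.3% in the other 9 libraries. With both counts summed as 1 feature, the sum was 30.3, 122, 62.1, 21.6 and 192 CPM in dIEC mice 1, 3, 5, 7 and 9, against 110.4, 33.9, 154, 135 and 165 CPM in WT mice 2, 4, 6, 8 and 10. The wide range thus remained in the sum, and the groups overlapped. The log2 fold change of the sum was -0.48 (SE 0.57; edgeR adjusted p = 0.9999). Hspa1l, the testis-type Hsp70 gene next to the pair, had 0 to 11 counts per library.

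**Figure D2:**
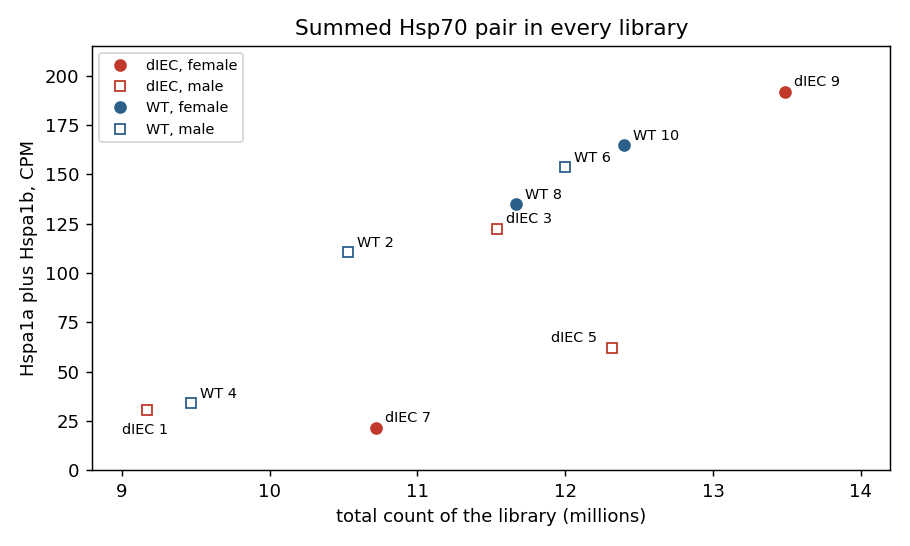
Summed CPM of Hspa1a and Hspa1b against the total count of each library, 1 point per mouse, dIEC in red and WT in blue, females filled and males open. The sum runs from 21.6 CPM in dIEC 7 to 192 CPM in dIEC 9, and the 3 lowest values belong to dIEC 7, dIEC 1 and WT 4, which are among the 4 libraries with the lowest totals.

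The level of Hspa1a moved with the total count of the library, a relation looked at only after the data were seen. For Hspa1a, Pearson's r with the total count was 0.814 and Spearman's rho 0.818 (permutation test, adjusted p = 0.0476 and 0.0322 over 10 genes, n = 10), and r was 0.589 without dIEC 1 and WT 4, the totals farthest from the median. For Hspa1b r was 0.705 and rho 0.758 (adjusted p = 0.121 and 0.0511; r = 0.537 without the same 2 libraries). Egr1 had the opposite sign, with r = -0.565 and rho = -0.830 (permutation test, adjusted p = 0.302 and 0.0322; r = -0.331 without these 2), and no other gene of the set passed by either measure. Whether depth, input or handling has a part in these relations was not tested.

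Between libraries, then, the set fell into a wide pair and a narrow group. The highest value was 9.92 times the lowest for Hspa1a and 9.57 times for Hspa1b. For the other 8 genes this ratio ran from 1.29 in Ier2 to 2.13 in Fosb. The SD of log2 CPM within genotype and sex was 1.36 for Hspa1a and 1.23 for Hspa1b, more than in 99.6% and 99.2% of the genes tested, whose median was 0.358. For the other 8 it ran from 0.128 for Ier2, above 5.98% of genes, to 0.426 for Fos, above 60.4% of genes. By this measure Fos, Fosb, Jun, Junb, Egr1, Atf3 and Dusp1 lay within the bulk of genes, and Ier2 was among the steadier ones. With library size as the only scaling the ratios were 12 and 14.3 for Hspa1a and Hspa1b, and at most 2.11 for the other 8 genes. On that scaling Junb had the lowest ratio, 1.39, and Ier2 had 1.84, so Ier2 was the steadiest on TMM-scaled values alone.

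**Figure D3:**
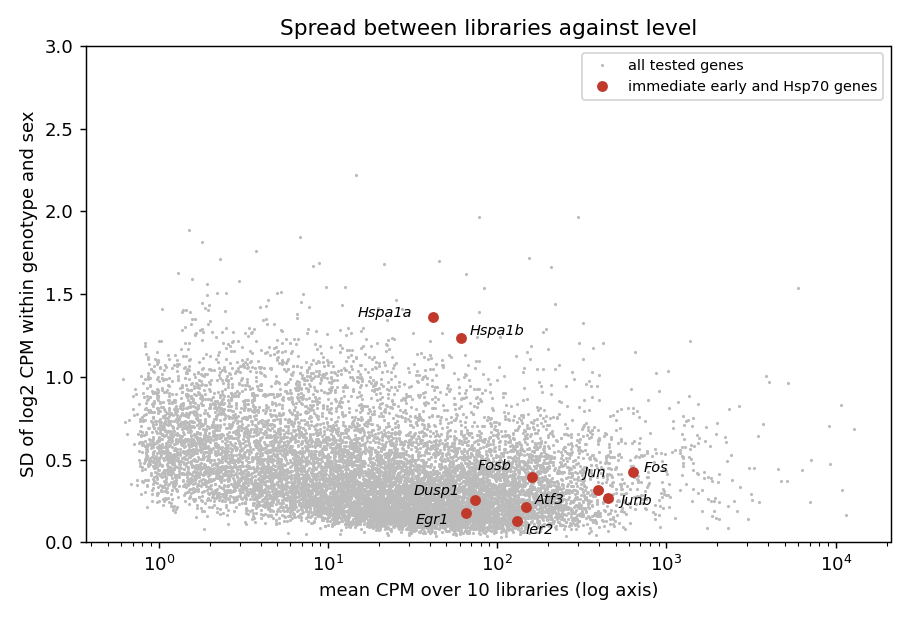
SD of log2 CPM within genotype and sex against the mean CPM over 10 libraries (log axis), grey for the 12477 genes tested and red for the 10 genes named. Hspa1a and Hspa1b lie near the upper edge at 1.36 and 1.23, and the other 8 lie between 0.128 and 0.426 among most genes of similar level.

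Levels of different genes were compared per kilobase of exon, as CPM per kb. Fos was the highest with 283 ± 75.7 in dIEC and 256 ± 74.5 in WT mice (SD, n = 5 each), followed by Junb with 203 ± 35.3 in dIEC and 189 ± 29.8 in WT mice. Jun came next with 127 in dIEC and 121 in WT mice, then Ier2 with 85.6 in dIEC and 85.8 in WT mice, and Atf3 with 73.8 in dIEC and 63.0 in WT mice. Each of these 5 overlapped its neighbour in this order over the 10 libraries. Between Atf3 and the remaining genes was a gap, as Atf3 was at least 53.9 CPM per kb and the others at most 40.8, the highest value of Hspa1b. Below it lay Fosb with 26.3 in dIEC and 25.2 in WT mice, and Dusp1 with 23.9 in dIEC and 20.9 in WT mice. Hspa1b had 18.3 in dIEC and 25.0 in WT mice, Egr1 15.7 in dIEC and 13.5 in WT mice, and Hspa1a 11.6 in dIEC and 16.7 in WT mice. These 5 overlapped one another, and the place of the Hsp70 pair in the order differed between libraries. The values for Hspa1a and Hspa1b are uncertain because of their shared sequence.

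The comparison of 4 females with 6 males gave no call in the set either, where 5 of 12477 genes passed, 0.0401%, with 1 higher (0.00801%) and 4 lower in females (0.0321%). Before adjustment 554 genes had p under 0.05, 4.44%, and none of the 10. The median log2 fold change of females over males was 0.043 over the 10 genes and 0.040 over all genes tested, with 6 of the 10 positive. Hspa1a averaged 54.8 ± 32.1 CPM in females and 33.3 ± 21.2 CPM in males (SD, n = 4 and 6), with a log2 fold change of 0.71 (SE 0.61). Egr1 averaged 58.9 ± 14.0 CPM in females and 69.8 ± 8.93 CPM in males, so its log2 fold change was -0.27 (SE 0.15), and its unadjusted p of 0.111 in edgeR was the lowest of the set (adjusted p = 0.9996). The sexes overlapped for each of the 10 genes, and did not for 118 of all genes tested, 0.946%. Without dIEC 9 the log2 fold change of Hspa1a was 0.094. A p that misses the threshold does not show equal levels, and the errors leave wide room, most of all for the Hsp70 pair.

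**Figure D4:**
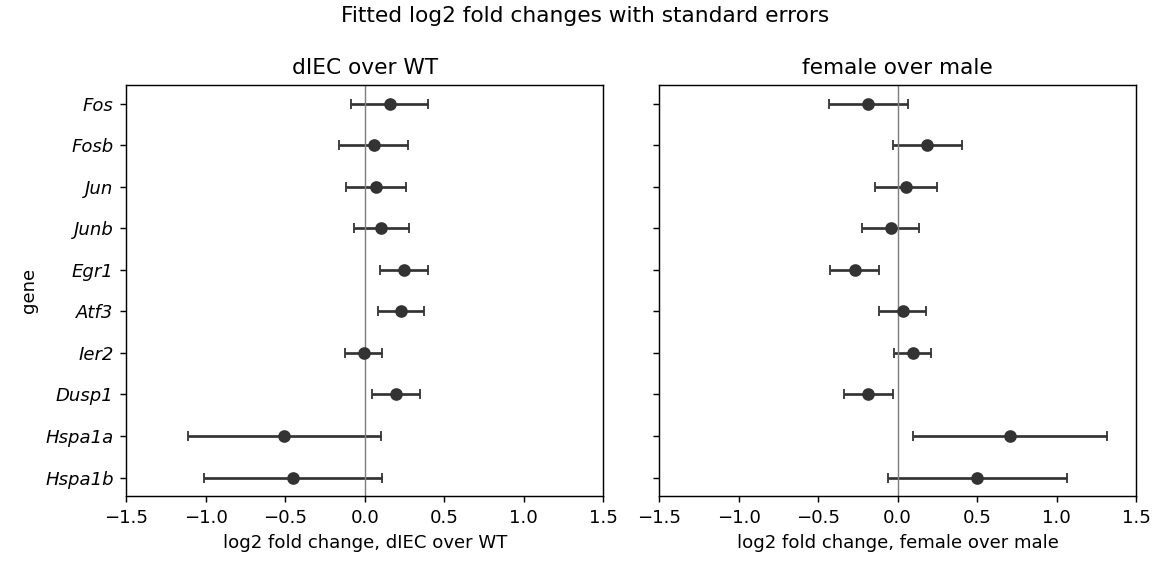
Fitted log2 fold changes with standard errors from edgeR, dIEC over WT on the left and females over males on the right, 1 row per gene. The errors run from 0.12 for Ier2 to 0.61 for Hspa1a, and none of the 20 values passed the threshold.

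Whether the genes varied together between mice was tested over the 45 pairs, each with 10 libraries. Hspa1a and Hspa1b went together under both scalings (Pearson's r = 0.961, Spearman's rho = 0.927; permutation test, adjusted p = 0.0054 and 0.00585; r = 0.980 without dIEC 1 and dIEC 7; r = 0.965 with library size only). The part of shared reads in this was not tested. On TMM-scaled values 11 pairs passed by r, and with library size as the only scaling 1 did, the Hsp70 pair, so the calls that follow were made on the TMM scale alone. Jun and Junb had r = 0.888 and rho = 0.952 (adjusted p = 0.00653 and 0.0036; r = 0.904 without WT 8 and WT 10, the farthest from the median of Jun), and r = 0.668 with library size only. Fos and Junb had r = 0.863 and rho = 0.842 (adjusted p = 0.0167 and 0.0458; r = 0.765 without dIEC 7 and WT 4), and r = 0.535 with library size only. Junb and Dusp1 had r = 0.836 and rho = 0.842 (adjusted p = 0.033 and 0.0458; r = 0.766 without dIEC 7 and WT 8), and r = 0.815 with library size only, where the call was lost (adjusted p = 0.153). Fos and Fosb had r = 0.805 and rho = 0.612 (adjusted p = 0.036 and 0.144), with r = 0.537 without dIEC 7 and WT 4 and r = 0.507 with library size only. Without any 1 library the r of Fos and Fosb, 0.805 with all 10, was at least 0.738 on TMM-scaled values. On residuals of sex plus genotype their r was 0.976 (permutation test, adjusted p = 0.00045). The permutation did not allow for the fitted terms, so this p may be too small.

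The other 6 pairs that passed by r on the TMM scale were negative. Fos and Hspa1b had r = -0.825 and rho = -0.794 (permutation test, adjusted p = 0.036 and 0.0593), with r = -0.629 without dIEC 7 and WT 4, and r = -0.745 with library size only. Atf3 and Hspa1a had r = -0.789 and rho = -0.673 (adjusted p = 0.036 and 0.0942), with r = -0.435 without dIEC 1 and dIEC 7 and r = -0.21 with library size only. The 2 libraries highest in Fos, WT 4 and dIEC 7, were among the 3 lowest in both Hsp70 genes. The remaining 4 were Fos with Ier2 (r = -0.746), Junb with Ier2 (r = -0.778), Junb with Hspa1b (r = -0.771) and Ier2 with Dusp1 (r = -0.778). For these 4, rho ran from -0.818 to -0.636 and its adjusted p from 0.0523 to 0.125, and r without the 2 libraries farthest from the median of the first gene from -0.928 to -0.678. With library size only, r of these 4 pairs was -0.608, -0.223, -0.379 and 0.0051 in the order named.

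On TMM-scaled values Fosb, Jun and Junb were higher where proliferation genes were lower, and with library size as the only scaling this relation did not pass. Of 10 relations with the proliferation score 3 passed, those of Fosb (r = -0.831, rho = -0.818; permutation test, adjusted p = 0.0238 and 0.0361), Jun (r = -0.812, rho = -0.782; adjusted p = 0.0238 and 0.0361) and Junb (r = -0.745, rho = -0.794; adjusted p = 0.0441 and 0.0361). Without dIEC 7 and WT 10, the farthest from the median score, r was -0.792, -0.588 and -0.569 in that order. Fos had r = -0.686 and rho = -0.6 (adjusted p = 0.0697 and 0.116), Ier2 r = 0.637 and Hspa1b r = 0.63 (adjusted p = 0.0849 for both), with r = -0.833, 0.651 and 0.787 without dIEC 7 and WT 10. With library size only, r of Fosb, Jun and Junb ran from -0.577 to -0.0363, and Ier2 alone passed (r = 0.907, adjusted p = 0.0031). The TMM factor, too, was lowest in dIEC 7 and highest in dIEC 9, and its part in these relations was not tested further. Without dIEC 7 and dIEC 9 no relation passed.

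**Figure D5:**
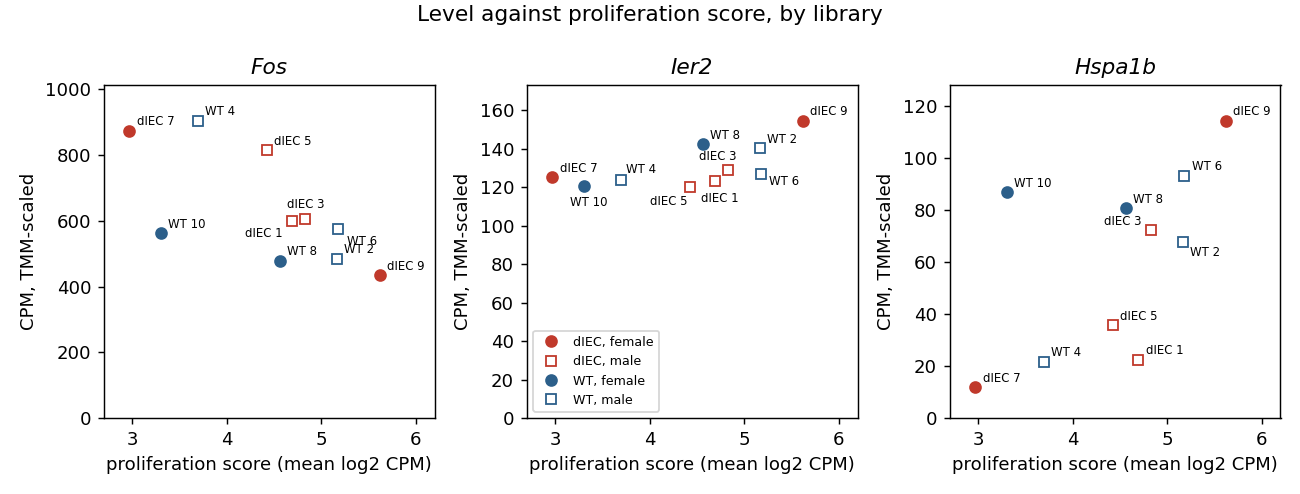
CPM (TMM-scaled) of Fos, Ier2 and Hspa1b against the proliferation score, the mean log2 CPM of 26 cell cycle genes, 1 point per mouse, dIEC in red and WT in blue, females filled and males open. On this scale Fos is high in dIEC 7 and WT 4, which have low scores, and Hspa1b is low there. WT 10, whose score of 3.31 is below that of WT 4 (3.70), does not share this, with Fos at 563 CPM and Hspa1b at 86.8 CPM. For Fos r is -0.686 on this scale and -0.382 with library size as the only scaling.

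The genes most like Fos and Hspa1a over the 10 libraries were taken by Pearson's r of log2 CPM among 11155 genes, as a description. For Fos these were Id1 (r = 0.970), Max (0.967), Prr13 (0.964), Sbf2 (0.963) and Bach1 (0.961). Id1 encodes an inhibitor of basic helix-loop-helix factors and Max the partner of Myc, and each of the 5 was lowest in dIEC 9 and highest in dIEC 7. These are TMM-scaled values, and the TMM factor was highest in dIEC 9 (1.21) and lowest in dIEC 7 (0.812). The ranking was not repeated with library size as the only scaling. For Hspa1a they were Fars2 (0.955), Hsp90aa1 (0.934), Hspa8 (0.932), Ppif (0.931) and Aplf (0.926). Hsp90aa1, the inducible Hsp90 gene, ran from 30.7 CPM in dIEC 7 to 107 CPM in dIEC 9, and Hspa8, the constitutive Hsp70 gene, from 175 CPM in dIEC 1 to 362 CPM in WT 6.

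The other genes of these pathways were read from the same fit. Of 13 other AP-1 and ATF family genes tested, none passed between genotypes in either direction, and 10 had a positive log2 fold change (median 0.099). Beside this, 52.6% of all genes tested were positive, with a median of 0.013, and the difference in sign was not tested. Fosl2 averaged 409 ± 143 CPM in dIEC and 313 ± 135 CPM in WT mice (SD, n = 5 each), and Jund 300 ± 71.8 CPM in dIEC and 279 ± 20.4 CPM in WT mice. Atf4, a factor of the integrated stress response, averaged 277 ± 24.3 CPM in dIEC and 294 ± 36.7 CPM in WT mice, and the small Maf gene Mafk 139 ± 44.2 CPM in dIEC and 131 ± 37.4 CPM in WT mice.

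Of 40 other immediate early genes tested none passed between genotypes, with 31 positive (median 0.098). Over all genes tested 52.6% were positive, with a median of 0.013, and the difference in sign was not tested. Klf6, a zinc finger factor gene, averaged 424 ± 71.1 CPM in dIEC and 403 ± 95.9 CPM in WT mice (SD, n = 5 each). Klf4, a factor of differentiating epithelium, averaged 369 ± 168 CPM in dIEC and 285 ± 152 CPM in WT mice. Mcl1, an inhibitor of apoptosis, averaged 326 ± 49.8 CPM in dIEC and 321 ± 58.5 CPM in WT mice, and Sgk1, a kinase gene induced by glucocorticoids, 285 ± 185 CPM in dIEC and 229 ± 169 CPM in WT mice.

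Of 7 other dual specificity phosphatase genes tested none passed between genotypes. Dusp6, the gene of a cytosolic MAP kinase phosphatase, had 201 ± 84.3 CPM in dIEC and 157 ± 60.9 CPM in WT mice (log2 fold change 0.37, SE 0.39), and the log2 fold changes of Dusp16, Dusp5 and Dusp8 were 0.021, -0.28 and 0.14. Of 24 MAP kinase and upstream factor genes tested none passed, and the log2 fold changes were -0.0097 for Map2k2 (SE 0.28) and -0.047 for Mapk3 (SE 0.13), both kinase genes of the MAP kinase cascade.

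Of 33 other heat shock and HSF1 target genes tested none passed between genotypes, and 25 had a negative log2 fold change (median -0.14). Over all genes the median was 0.013 and 52.6% were positive, and the difference in sign was not tested. Hspa8 had 233 ± 60.5 CPM in dIEC and 318 ± 69.7 CPM in WT mice (SD, n = 5 each; log2 fold change -0.45, SE 0.22, unadjusted p = 0.066 in edgeR). Hsp90ab1, the constitutive Hsp90 gene, had 482 ± 180.0 CPM in dIEC and 547 ± 176 CPM in WT mice, the mitochondrial chaperone gene Hspa9 205 ± 78.1 CPM in dIEC and 238 ± 74.4 CPM in WT mice, and Hspa4, of the Hsp110 family, 199.7 ± 23.0 CPM in dIEC and 223 ± 34.3 CPM in WT mice. None of these lists held a gene that passed between the sexes or for the interaction.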

How the data were processed

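Raw counts per gene were deposited for 10 libraries, made with a stranded kit after ribosomal RNA removal per the labels' protocols. The submitters' processing notes name Novoalign and mm10. The sources used here do not state how reads were counted, on which annotation or with what use of strand, so near-identical genes such as Hspa1a and Hspa1b are uncertain. The 10 genes and the other gene lists were chosen with earlier results of these data known.

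Counts were tested in R 4.3.3 with edgeR 4.0.16 (quasi-likelihood, robust), TMM factors and a model of sex plus genotype, or with their product for the interaction. filterByExpr kept 12477 of 13932 genes (89.6%), and p-values were adjusted by Benjamini-Hochberg over them, with a threshold of 0.05. SE was taken as the size of the change divided by the root of F. Correlations use log2 CPM with a prior count of 2 and 100000 permutations, two-sided. Exonic lengths, gene coordinates and coding sequences come from GENCODE M21 on GRCm38, promoters from RefSeq. The method was tested on simulated counts. No pair of libraries of 1 genotype was alike enough to be 1 library deposited again (chi-square per degree of freedom at least 17.0). The totals, 9174101 to 13484363 counts, set the precision.

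Named were the 10 genes, up to 4 of the most abundant tested genes of each related list, and the 5 genes most like Fos and Hspa1a whose mean reached 1 CPM, without gene models. Some genes that this rule takes are not reported here. Alternatives were DESeq2 1.42.0, limma 3.58.1 (voom with sample weights), other size factors, no filter, a proliferation score as covariate, each sex or genotype alone, no sex term, another prior count, residuals of sex plus genotype, and each library left out in turn. Chosen after the data were seen were fits without dIEC 7 and dIEC 9, the summed Hsp70 pair, and correlations with library size as the only scaling. Correlations of the genes with the total count of the library were also added after the data were seen.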

Additional observations from a re-analysis of the deposited data

Results flagged for a closer look

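Within the genotypes 20 groups of 5 libraries were examined, 10 genes in each genotype, and in 2 a single library stood apart from the other 4, where chance gives about 1. Ier2 in dIEC mice was at 154.5 CPM in dIEC 9, against 119.9 to 129 CPM in the other 4 dIEC libraries. Fos in WT mice was at 905.0 CPM in WT 4, against 478 to 575 CPM in the other 4 WT libraries. dIEC 9 also had the highest proliferation score and TMM factor, and WT 4 the second lowest total count, and the part of either in these values was not tested.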

How the results depend on the processing

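None of the 10 genes passed the threshold for genotype, sex or their interaction in any of 556 alternative fits (lowest adjusted p = 0.0642, Fos between the sexes with the proliferation score as covariate in edgeR), and 73 of these fits gave the other sign. Between dIEC and WT, 4 genes were called by DESeq2, 4 with the proliferation score as covariate and 0 in females alone, and between females and males 9 by DESeq2, 559 with the score and 8 without dIEC 7 and dIEC 9. For the interaction the count was 16 by DESeq2, 13 with the score, 0 by limma voom and with library size only, and 0 to 1 without each library. The main edgeR fit, which called 1 gene for the interaction, gave 262 genes at an unadjusted p under 0.05. None of these calls was one of the 10 genes.

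Leaving out 1 library at a time, the log2 fold change of dIEC over WT ran from -0.051 to 0.34 for Fos, from -0.084 to 0.25 for Fosb, from -0.027 to 0.20 for Jun, from -0.034 to 0.18 for Junb, from 0.17 to 0.34 for Egr1, from 0.14 to 0.29 for Atf3, from -0.071 to 0.033 for Ier2, from 0.12 to 0.31 for Dusp1, from -1.03 to -0.23 for Hspa1a and from -1.06 to -0.18 for Hspa1b. That of females over males ran from -0.11 to 0.16 for Jun, from -0.22 to 0.054 for Junb, from -0.049 to 0.12 for Atf3 and from -0.23 to 0.84 for Hspa1b. With library size only, Ier2 was 0.0091 for genotype, and Jun -0.023 and Atf3 -0.014 for sex. In single sexes Fosb was -0.014 in males and Ier2 0.093 in females for genotype. For sex, Atf3 was -0.081 in WT and Junb 0.030 in dIEC mice alone. Without dIEC 7 and dIEC 9, Fosb was -0.018 for genotype and Atf3 -0.078 for sex. With limma voom the sex values of Fos (0.082), Junb (0.14), Ier2 (-0.020), Dusp1 (0.011) and Hspa1b (-0.39) took the other sign, and with the proliferation score that of Jun did (-0.13). The cause was not tested.

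The number of pairs of genes that passed, 11, was 1 with library size only and 3 to 15 without each library, and Ier2 with Dusp1 had r = 0.0051 with library size only. The number of relations with the proliferation score, 3, was 8 on residuals of sex plus genotype, 1 with library size only, 0 without dIEC 7 and dIEC 9 and 0 to 6 without each library. The permutation of residuals did not allow for the fitted terms, so the count of 8 may be too high. For Atf3 the r with the score was 0.558 with library size only, 0.131 without dIEC 7 and dIEC 9 and -0.481 to 0.246 without each library, for Dusp1 0.249 with library size only, and for Egr1 -0.0996 to 0.442 without each library. The spread of Hspa1a and Hspa1b past 3-fold, and of no other gene of the set, held with library size only. No paired analysis was possible because the genotypes share no replicate number and no label says that neighbouring numbers mark pairs.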

Other observations

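Among the other heat shock genes, chosen after their values were seen, Hsph1, a co-chaperone of the Hsp110 family, and Hspd1, the mitochondrial chaperonin gene, also ranged widely. Hsph1 had 34.8 ± 25.8 CPM in dIEC and 49.1 ± 19.8 CPM in WT mice (SD, n = 5 each), with 6.99 times between the lowest and the highest library. Hspd1 had 66.0 ± 38.1 CPM in dIEC and 70.1 ± 29.0 CPM in WT mice, with 6.89 times. Dnajb1, the Hsp40 gene that HSF1 also induces, had 87.0 ± 13.0 CPM in dIEC and 90.6 ± 11.0 CPM in WT mice, with 1.49 times, and Hsf1 itself 12.4 ± 1.09 CPM in dIEC and 13.0 ± 1.06 CPM in WT mice, with 1.26 times. Dnajb1 thus ranged less than the Hsp70 pair, though its level moved with that of Hspa1a. On TMM-scaled values Pearson's r with Hspa1a was 0.836 for Dnajb1, 0.90 for Hsph1, 0.626 for Hspd1 and 0.481 for Hsf1. The list as a whole was mixed. Over its 33 tested genes this r ran from -0.64 for Dnajb2 to 0.934 for Hsp90aa1, with Bag3 at -0.033. With the proliferation score r was 0.247 for Dnajb1, 0.747 for Hsph1, 0.932 for Hspd1 and 0.030 for Hsf1. These r are a description without a test. Of the immediate early genes, Sgk1 ranged 7.08-fold and Klf4 4.73-fold between libraries, more than any of Fos, Fosb, Jun, Junb, Egr1, Atf3, Ier2 and Dusp1. Sgk1 had a log2 fold change of females over males of -1.19 (unadjusted p = 0.0219 in edgeR), which did not pass over all genes.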
